A study of Mus musculus with 2 samples.

Results

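The cadherin and protocadherin genes of the mouse retina are described here, taken as every annotated feature whose symbol is Cdh followed only by digits or begins with Pcdh. They numbered 92 of 32285 features, 23 with Cdh symbols and 69 with Pcdh symbols, under 91 symbols because Pcdha11 was listed with a pair of gene identifiers. The study sorted tdTomato-positive retinal cells by flow cytometry and counted their RNA in droplets as unique molecular identifiers (UMIs). There were 2 libraries, 1 per group: one labelled Muller, taken as the test because the other is labelled MullerControl. Both came from mice with the Gt(ROSA)26Sortm9(CAG-tdTomato)Hze allele, a Cre-dependent tdTomato reporter, on a B6.Cg background, aged 14 weeks and taken 8 weeks after AAV injection. The sort gave about 4.9% positive cells for Muller and 10% for MullerControl, and 60000 and 120000 cells were collected, of which 27000 were loaded each time. The labels used here do not name the promoter or payload of either virus, the number of mice per library, or whether retinas were pooled. With 1 library per group no p-value was computed: every comparison describes these 2 libraries, and intervals cover counting error only.

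Cadherins are calcium-dependent adhesion proteins of the cell surface. Classical cadherins of type I and type II bind the same or a related cadherin on the neighbouring cell and are tied to actin through catenins. The non-clustered protocadherins of the delta families bind more weakly and act through other cytoplasmic partners, among them the WAVE actin regulators. The clustered protocadherins lie in the alpha, beta and gamma arrays, from which neurons choose promoters largely at random and so carry different sets of surface proteins. In the retina, cadherins are known for the adherens junctions between Müller glia and photoreceptors and for the choice of synaptic layer by neurites, and gamma protocadherins for the spacing of amacrine cell branches and for neuron survival.

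The deposited matrices held 12316 and 11309 barcodes with 25622379 and 23549118 UMIs in the Muller and MullerControl libraries, and 10757 and 9538 cells were kept. Cells were gated on summed markers of each class. This gave 3772 and 6338 rods, 335 and 829 cones, 3145 and 946 bipolar cells, 717 and 205 amacrine cells, and 1020 and 626 Müller cells. Although the libraries are named for Müller cells, these made up 9.48% and 6.56% of kept cells. The classes took different shares in the 2 libraries, with rods at 35.1% and 66.4% and bipolar cells at 29.2% and 9.92%. Within bipolar cells, 8 subtypes were gated and are called by their marker genes, 68 and 20 OFF cells were not split further, and 1025 and 298 bipolar cells took no subtype. The 2 libraries shared 40 barcodes, 30 of them among kept cells. Levels are given as CPM, the UMIs of a gene scaled to 1000000 UMIs of the class. All members together made up 93.7 and 59.6 CPM in microglia, the immune cells of the tissue, against 287 to 2103 CPM in the 5 main classes. Since the assay counts 1 end of each transcript, CPM values were compared between genes without division by length.

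All 92 members had at least 1 UMI over all barcodes. Of these, 81 had at least 20 UMIs over the gated classes and entered the counts below, and 44 had at least 200. The 11 below that limit were Cdh1, Cdh3, Cdh5, Cdh15, Cdh17, Cdh19, Cdh26, Pcdh12, Pcdha3, Pcdha6 and Pcdhb1. Cdh5, the cadherin of endothelial junctions, had no UMI in the gated classes, among them 1996779 and 1694762 UMIs of Müller cells. Endothelial markers as a list summed to 1207 and 1305 CPM in Müller cells, with 3 of 7 at 0 in both libraries. Among the 81 members, the highest class was amacrine for 42 (51.9%, beside 34.0% of all features tested), bipolar for 19 (23.5%, beside 13.8%), Müller for 16 (19.8%, beside 24.0%), cone for 3 (3.70%, beside 16.3%) and rod for 1 (1.23%, beside 1780 of 14842 features). No margin over the next class was required for this tally. For many members the leading classes had overlapping intervals or changed places between the libraries, as amacrine and bipolar cells did for Cdh4, Pcdh10 and Pcdh20. A member was counted as class-enriched where its CPM, with 10 added, was at least 3 times that of the next class in both libraries. That held for 4 of 81 members, Cdh2 in Müller cells, Cdh8 and Cdh9 in bipolar cells and Cdh7 in amacrine cells, beside 6.31% of all 14842 features tested. By class that was 1 member in Müller cells beside 3.32% of features, 2 in bipolar cells beside 0.667%, 1 in amacrine cells beside 1.4%, and none in rods or cones beside 0.499% and 0.424%. The heat map of members by class shows these levels side by side for the 2 libraries.

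**Figure D1:**
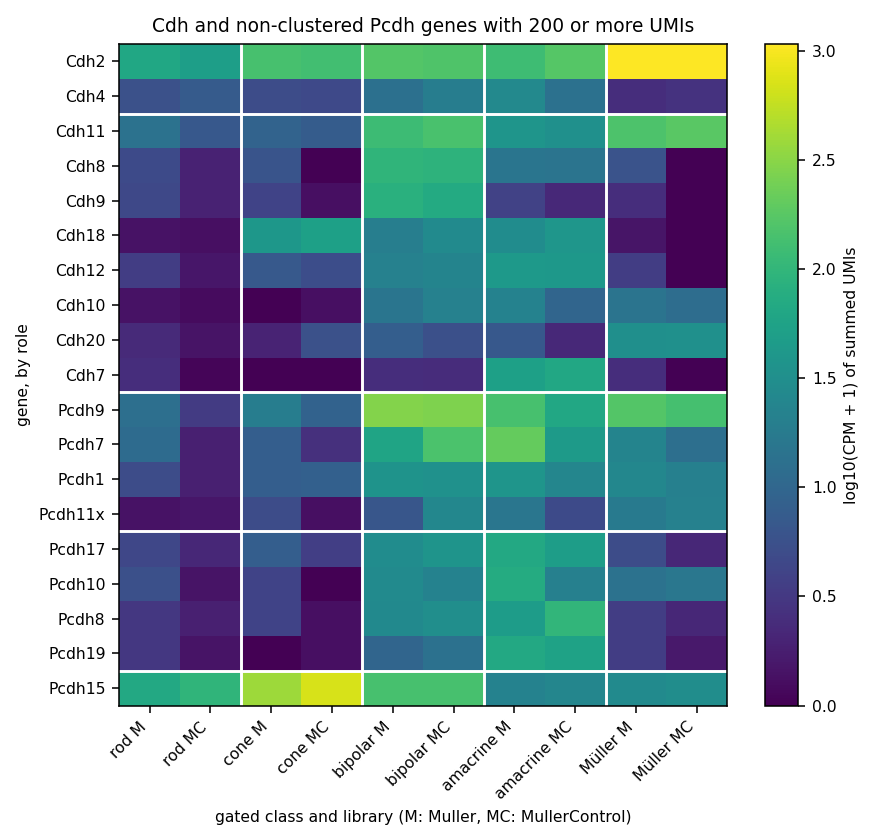
Heat map of log10(CPM + 1) for the 19 Cdh and non-clustered Pcdh genes with at least 200 UMIs (rows, by role) in 5 gated classes of the Muller (M) and MullerControl (MC) libraries. Cdh2 is brightest in Müller cells, Pcdh15 in cones, and Pcdh9, Cdh8 and Cdh9 in bipolar cells.

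Cdh2, N-cadherin, the type I cadherin of neural adherens junctions, was the most abundant member. It reached 1046 CPM (95% Poisson interval 1001 to 1092) in Müller cells of the Muller library and 1072 CPM (1023 to 1122) in those of the MullerControl library. The fold over the next class, with 10 CPM added to both, was 6.12 and 5.98. In neurons Cdh2 lay at 163 and 158 CPM in bipolar cells, 121 and 171 in amacrine cells, 138 and 127 in cones, and 63.5 and 49.5 in rods, so that rods were lowest in both libraries. Müller cells fell into 3 clusters of cells. Cdh2 was at 1153 and 1158 CPM in cluster 8 and at 1212 and 1187 CPM in cluster 15, but at 318 and 471 CPM in cluster 6. Cluster 6 also had the fewest UMIs per cell, with medians of 684 and 851, and the lowest Malat1, 15666 and 4499 CPM against 131282 to 231814 CPM in the other 2 clusters. The part of this in the Cdh2 level was not tested. Cdh4, R-cadherin, was low, with 25.8 and 12.6 CPM in amacrine cells and 12.3 and 18.3 CPM in bipolar cells. In the bipolar subtypes Cdh4 was at 33.8 and 35.9 CPM in the Cck/Cnmd cells and at 1.06 and 4.67 CPM in the Slitrk6 OFF cells. The other type I genes, Cdh1, Cdh3 and Cdh15, had 4, 6 and 7 UMIs in the gated classes.

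Of the 13 type II cadherins, 11 passed the count limit, and 3 of these were class-enriched, beside 1 of 2 type I cadherins and 6.31% of all features. Cdh11, first known from mesenchyme, was shared between Müller cells (152 and 179 CPM) and bipolar cells (118 and 142 CPM) and was at 36.6 and 32.6 CPM in amacrine cells. Among bipolar subtypes it was highest in the Slitrk5 cells, at 389 and 298 CPM. It was at 213 and 224 CPM in the Slitrk6 OFF cells and at 168 and 225 CPM in the Kcng4 cells. The Cck/Cnmd cells, at 18.4 and 16.3 CPM, and the rod bipolar cells, at 52.0 and 36.1 CPM, had little of it.

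Cdh8 and Cdh9 are a pair of type II cadherins known in the mouse to direct the axons of different bipolar cells to different synaptic layers, Cdh8 in an OFF group and Cdh9 in an ON group. Both were bipolar-enriched here. Cdh8 was at 95.2 CPM (89.1 to 102) and 89.7 CPM (80.1 to 100.1) in bipolar cells, with amacrine cells next at 14.1 and 13.8 CPM. The fold was 4.36 and 4.19 with 10 CPM added to both classes. Cdh9 was at 83.8 CPM (78.1 to 89.8) and 69.4 CPM (61.0 to 78.6), with folds of 6.90 and 7.05 over the next class on the same scale. Within bipolar cells the pair parted. Cdh8 reached 473 and 369 CPM in the Cck/Cnmd cells and 544 and 549 CPM in the Neto1 OFF cells. Cck and Cnmd are not among the OFF markers used for the gates, and the Slitrk6 OFF cells had 23.3 and 9.34 CPM of Cdh8. Cdh8 thus did not follow the OFF gates as a group. In the Kcng4 cells it was at 14.4 and 18.8 CPM, and rod bipolar cells, the subtype of the rod pathway, had 4 and 5 UMIs of it in all. Cdh9 had other high subtypes, with 198 and 231 CPM in the Kcng4 cells and 86 and 26 UMIs in the Igfn1 cells, the latter 285 CPM. In the Cck/Cnmd cells it was at 12.6 and 6.54 CPM. The OFF subtypes had little Cdh9, 17 and 3 UMIs in the Slitrk6 OFF cells and 31.4 and 38.1 CPM in the Neto1 OFF cells. The pair was rarely counted in the same cell. In the Muller library 401 bipolar cells held Cdh8 UMIs alone, 522 held Cdh9 alone and 16 held both. In the MullerControl library the numbers were 131, 140 and 9. Neither gene met the subtype rule, at least 3 times the next subtype in both libraries with 50 CPM added, among the 6 subtypes of at least 30 cells in each library. The folds were 1.14 and 1.43 for Cdh8 and 2.63 and 3.18 for Cdh9. The Igfn1 cells, 27 in the MullerControl library, were not among these 6 subtypes. The Cdh9 folds therefore leave out a subtype whose level in that library, 285 CPM, was above that of the Kcng4 cells. The Slitrk5 cells differed in Cdh8 between the libraries, 31.5 against 162 CPM, on 9 and 12 UMIs and with 19 cells in the MullerControl library.

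The promoters of both genes are shown because the bases upstream of Cdh8 overlap an exon of another gene, whose counts can be read in the same cells. The sequences come from the 250 bases upstream of the RefSeq start (GRCm38.p6), 5′ to 3′ on the strand of the gene, and capitals mark TAAT, the core of many homeodomain sites, on either strand. The Cdh8 window covers chr8:99416472-99416721 on the minus strand, next to the gene at 99024471 to 99416471 of chromosome 8. The Cdh9 window is the 91 bases farthest from the RefSeq start, chr15:16728665-16728755 on the plus strand, since the other 159 bases lie in an exon of Cdh9 in GENCODE M21.
Cdh8: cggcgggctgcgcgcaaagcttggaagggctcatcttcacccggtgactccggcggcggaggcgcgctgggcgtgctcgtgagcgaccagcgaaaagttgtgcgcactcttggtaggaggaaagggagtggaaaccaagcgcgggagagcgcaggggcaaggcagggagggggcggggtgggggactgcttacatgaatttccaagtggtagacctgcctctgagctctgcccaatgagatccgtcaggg
Cdh9: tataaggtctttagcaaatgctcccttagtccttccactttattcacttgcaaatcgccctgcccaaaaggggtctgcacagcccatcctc
Neither window holds TAAT, which 54.9% of 32851 RefSeq windows of 250 bases do. This says only that these letters are not in these windows, and the Cdh9 window is shorter than those counted. The Cdh8 window overlaps an exon of A330008L17Rik, a noncoding gene on the opposite strand. Its UMIs ran with those of Cdh8. A330008L17Rik was at 131 and 94.8 CPM in the Cck/Cnmd cells and at 157 and 137 CPM in the Neto1 OFF cells. In the rod bipolar, Kcng4 and Slitrk6 OFF cells it stayed between 0.490 and 3.42 CPM. The Slitrk5 cells, with 3.50 and 27.1 CPM, rest on 1 and 2 UMIs. No exon of Cdh8 lies in the window itself. Whether counting used strand is not given in the sources used here, so any reads shared by Cdh8 and A330008L17Rik cannot be assigned.

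The other type II cadherins were lower and mostly neuronal. Cdh18 was highest in cones, at 39.6 CPM (28.2 to 54.2) and 52.2 CPM (44.4 to 61.0). Amacrine cells were next, at 28.7 and 37.7 CPM, with intervals that overlap those of cones in both libraries. Rods were at 0.424 and 0.319 CPM. Cones and rods thus differed in Cdh18 in both libraries, with intervals far apart. Cdh12 was at 41.6 and 40.2 CPM in amacrine cells. In bipolar cells it stood out for its presence in rod bipolar cells, 41.7 and 46.0 CPM, a subtype with little Cdh8, Pcdh1, Pcdh7 or Pcdh9, and for 62.8 and 109 CPM in the Igfn1 cells. Cdh10 was at 14.1 and 20.3 CPM in bipolar cells and at 13.5 and 11.2 CPM in Müller cells. In the Muller library amacrine cells, with 51 UMIs, ranked first for Cdh10, with an interval that overlaps that of bipolar cells. Bipolar cells ranked first in the MullerControl library. Cdh20 was mainly a Müller gene, at 31.1 and 32.5 CPM there, and at no more than 6.98 CPM in any neuronal class.

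Cdh7 was the amacrine-enriched member, at 51.1 CPM (42.5 to 61.0) and 64.0 CPM (47.7 to 84.2), with folds of 5.32 and 6.49 over the next class after 10 CPM were added to both. Amacrine cells were split by whether Gad1 and Gad2, which make GABA, or Slc6a9, a glycine transporter, had more UMIs. Cdh7 was at 70.7 and 71.4 CPM in the glycine-side cells and at 27.7 and 8.97 CPM in the GABA-side cells. The 3 type II genes Cdh24, Cdh22 and Cdh6, each under 200 UMIs, also had their highest level in amacrine cells, at 37.4 and 10.0 CPM, 34.5 and 21.3 CPM, and 15.8 and 20.1 CPM. On the GABA side these read 74.8 and 26.9, 46.2 and 98.7, and 21.2 and 44.9 CPM, against 2.65 to 26.5 CPM on the glycine side.

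The delta1 protocadherins, Pcdh1, Pcdh7, Pcdh9 and Pcdh11x, have a longer cytoplasmic tail that binds a phosphatase. Pcdh9 was the most abundant bipolar member, at 291 CPM (280.4 to 302) and 274 CPM (257 to 291). It was also present in Müller cells, at 165 and 135 CPM, and scarce in rods, at 11.9 and 2.34 CPM. Among bipolar subtypes Pcdh9 separated cone bipolar cells from rod bipolar cells. It ranged from 203 to 755 CPM over the 7 gated cone bipolar subtypes and both libraries, with the Cck/Cnmd cells at 667 and 650 CPM, and was at 15.2 and 4.98 CPM in rod bipolar cells. Pcdh1 was also near absent from rod bipolar cells, at 2.45 and 1.24 CPM, and was at 59.9 and 65.4 CPM in the Cck/Cnmd cells, but the Neto1 OFF cells had only 10.5 and 0 CPM of it. Pcdh7 was highest in the Cpne9/Tshz2 cells, at 265 and 417 CPM, was at 179 and 154 CPM in the Slitrk6 OFF cells, and was at 3.43 and 0 CPM in rod bipolar cells.

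Among bipolar cells Pcdh11x, on the X chromosome at 120290259 to 120910619, was close to a single-subtype gene. It was at 408 CPM (287 to 562) and 561 CPM (449 to 693) in the Cpne9/Tshz2 cells and at no more than 2.77 CPM in the 7 other subtypes of either library. Outside bipolar cells, Müller cells held 32 and 35 UMIs of Pcdh11x over 29 and 33 cells, and amacrine cells of the Muller library held 35 UMIs. Müller cells ranked first of the classes for Pcdh11x in the Muller library, bipolar cells in the MullerControl library. The fold over the next subtype, with 50 CPM added, was 8.68 and 12.2. It was the only one of 66 members tested to be subtype-enriched, beside 0.473% of 11623 features. The Cpne9/Tshz2 gate held 35 and 46 cells, and 1 cell carried 22.1% of the 86 Pcdh11x UMIs of MullerControl bipolar cells. The plot of members by bipolar subtype shows the different profiles of these 6 genes.

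**Figure D2:**
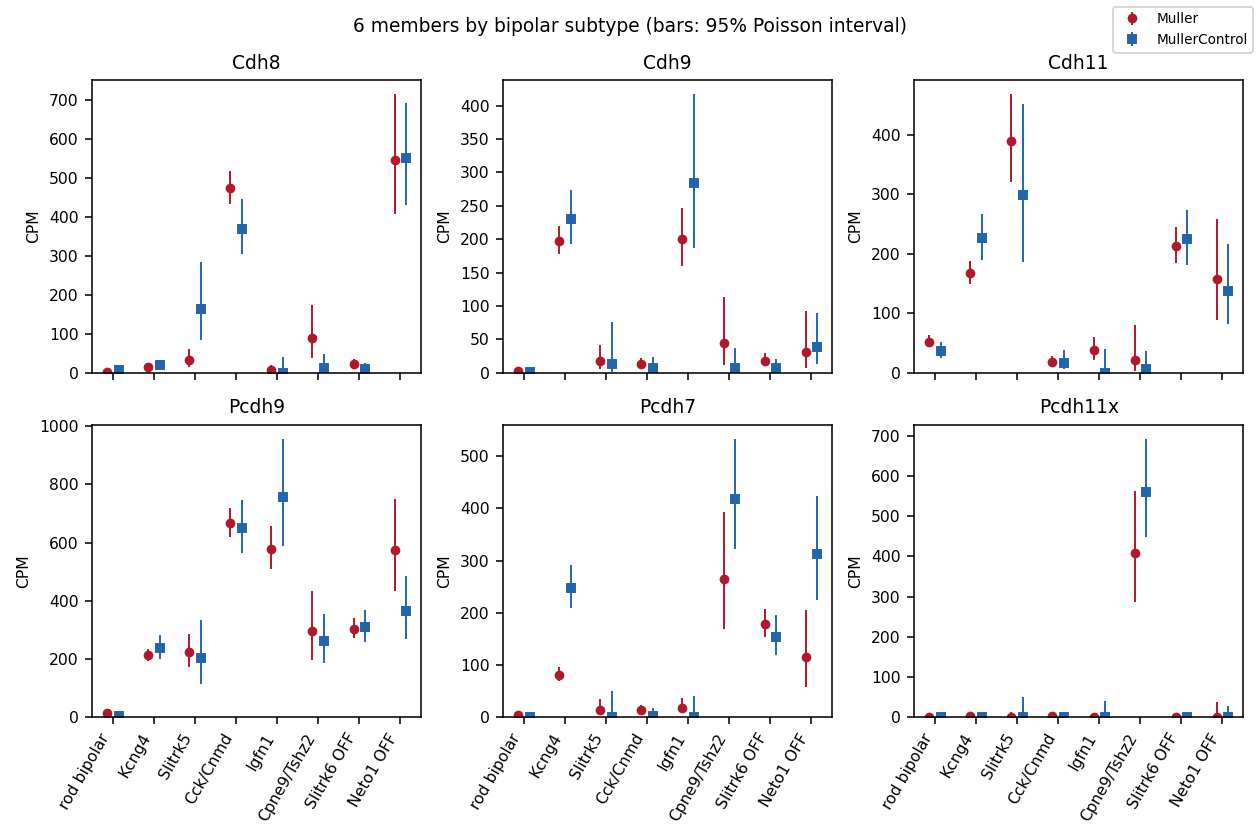
CPM of 6 members (panels) in 8 gated bipolar subtypes (x axis) of the Muller (circles) and MullerControl (squares) libraries, with 95% Poisson intervals. Cdh8 peaks in the Cck/Cnmd and Neto1 OFF cells, Cdh9 in the Kcng4 and Igfn1 cells, Cdh11 in the Slitrk5 cells and Pcdh11x in the Cpne9/Tshz2 cells, while rod bipolar cells are at no more than 52.0 CPM in each panel.

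The delta2 protocadherins, Pcdh8, Pcdh10, Pcdh17, Pcdh18 and Pcdh19, recruit actin regulators of the WAVE complex and take part in axon and synapse sorting. Of these 5, Pcdh8, Pcdh17 and Pcdh19 had their highest class in amacrine cells in both libraries. Pcdh17 was at 65.7 and 47.7 CPM there, and at 149 and 296 CPM in the Igfn1 bipolar cells, its highest subtype. Pcdh19, an X-linked gene of human epilepsy, was at 66.1 CPM (56.2 to 77.2) and 55.2 CPM (40.1 to 74.2) in amacrine cells and at 8.77 and 12.7 CPM in bipolar cells. Pcdh10 was at 71.9 and 20.1 CPM in amacrine cells, while bipolar cells had 27.0 and 21.1 CPM. Among bipolar subtypes Pcdh10 had its highest level in the Slitrk5 cells, at 259 and 176 CPM, with at most 68.7 CPM in the others. The Slitrk5 gate of the MullerControl library held 19 cells. Pcdh8 was high in the same cells, at 179 and 189 CPM, and was at 62.8 and 68.6 CPM in the Cck/Cnmd cells. Pcdh18, with 124 UMIs, was at 20.5 and 24.8 CPM in Müller cells and at 20.3 and 17.9 CPM in GABA-side amacrine cells, the latter on 22 and 2 UMIs.

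The sides of the amacrine class differed in these genes. Pcdh10 was at 144 and 108 CPM on the GABA side and at 7.95 and 6.21 CPM on the glycine side. Pcdh17 was at 105 and 188 CPM on the GABA side against 28.3 and 26.4 CPM on the glycine side. Pcdh19 was at 97.9 and 170 CPM against 30.9 and 34.1 CPM. Pcdh8 had the reverse order, at 23.1 and 35.9 CPM on the GABA side and at 69.8 and 113 CPM on the glycine side. The GABA side held 297 and 24 cells and the glycine side 343 and 169, so the pooled amacrine class of the MullerControl library was mostly glycine-side.

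Pcdh15 is the gene of Usher syndrome type 1F and, with Cdh23, forms the tip link of hair cells; in photoreceptors its protein lies at the base of the outer segment. It was the leading member of cones, at 386 CPM (348 to 427) and 706 CPM (677 to 737), and of rods, at 66.3 CPM (59.2 to 74.1) and 94.4 CPM (88.2 to 101). Bipolar cells had 141 and 139 CPM, so that the order cone, bipolar, rod held in both libraries, with Müller and amacrine cells at 21.2 to 29.5 CPM. Within bipolar cells Pcdh15 was highest in the Slitrk6 OFF cells, at 294 and 296 CPM, and lowest in rod bipolar cells, at 24.5 and 29.9 CPM. In rods it moved with Malat1, a nuclear RNA. Clusters 1, 2 and 23, with Malat1 between 2405 and 9914 CPM, held 22.9 to 31.9 CPM of Pcdh15. Clusters 0, 3, 4 and 16, with Malat1 between 60136 and 104860 CPM, held 85.8 to 254 CPM. In cones the Malat1-poor cluster 18 had 71.9 and 87.5 CPM and cluster 5 had 471 and 823 CPM. The part of Malat1 or cell quality in the Pcdh15 level was not tested.

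The promoter of Pcdh15 listed by RefSeq is shown because this gene leads both photoreceptor classes. It lies at chr10:73821617-73821866 on the plus strand (GRCm38.p6), inside the gene body of 73099342 to 74649737 and outside every GENCODE exon. The start listed by RefSeq is thus internal to the gene, and its use in these cells was not tested. Capitals again mark TAAT on either strand.
Pcdh15: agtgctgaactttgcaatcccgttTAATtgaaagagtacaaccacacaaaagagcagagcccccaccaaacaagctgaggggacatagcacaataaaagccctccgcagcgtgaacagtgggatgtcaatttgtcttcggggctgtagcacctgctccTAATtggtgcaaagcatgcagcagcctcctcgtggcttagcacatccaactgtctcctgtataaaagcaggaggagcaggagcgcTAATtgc
This window holds TAAT 3 times. Of the 91 member symbols, 22 had an entry in the table of promoters.

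Cdh23, the tip-link partner of Pcdh15, had 24 UMIs in the gated classes, 17 of them in Müller cells (5.01 and 4.13 CPM), and cones had 0 and 1 UMI. Cdh13, a cadherin held to the membrane by a lipid anchor, was at 27.5 and 18.3 CPM in Müller cells and at 11.6 and 11.3 CPM in amacrine cells. Cdh16 was the only member whose highest class was rods, at 3.81 and 6.81 CPM. Pcdh20 was at 18.3 and 6.28 CPM in amacrine cells.

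The clustered protocadherins, 57 features on chromosome 18, were summed by array because most single genes had few UMIs: 25 of 57 passed 200. All 14 alpha and all 21 gamma genes end within 10 bases of each other in the annotation, since their transcripts share the last exons, while none of the 22 beta genes does. Counting of single alpha and gamma genes by their ends is therefore uncertain. Summed over the arrays, bipolar cells had 574 and 638 CPM, amacrine cells 626 and 682, Müller cells 498 and 513, cones 158 and 197, and rods 131 and 111. Photoreceptors were thus below the other 3 classes in each library, with intervals that do not overlap. Bipolar cells held 4.39 and 5.73 times the rod sum. Rod bipolar cells had 443 and 415 CPM, below each of the 7 other subtypes of the same library (534 to 909 CPM), although the intervals of the smallest subtypes reach theirs.

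The arrays differed in their spread over the classes. The alpha array gave 51.4 and 56.4 CPM in bipolar cells, 55.7 and 50.2 in amacrine cells and 31.5 and 32.8 in cones, but 4.24 CPM (2.59 to 6.54) and 3.19 CPM (2.15 to 4.56) in rods and 4.01 CPM (1.73 to 7.89) and 0.590 CPM (0.0149 to 3.29) in Müller cells, from 8 and 1 UMIs. The beta array was at 279 and 298 CPM in Müller cells, at 308 and 357 CPM in bipolar cells and at 361 and 391 CPM in amacrine cells. The gamma array was at 214 CPM in Müller cells of both libraries and at 214 and 225 CPM in bipolar cells, while rods had 69.9 CPM in both. Rods were thus low in all 3 arrays, and Müller cells in alpha. Alpha UMIs thus made up 0.191% and 0.0281% of member UMIs in Müller cells against 2.95% and 2.93% in bipolar cells. How reads in the shared last exons were counted is not given in the sources used here. Microglia had no alpha UMI. The plot of clustered arrays by class shows these sums.

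**Figure D3:**
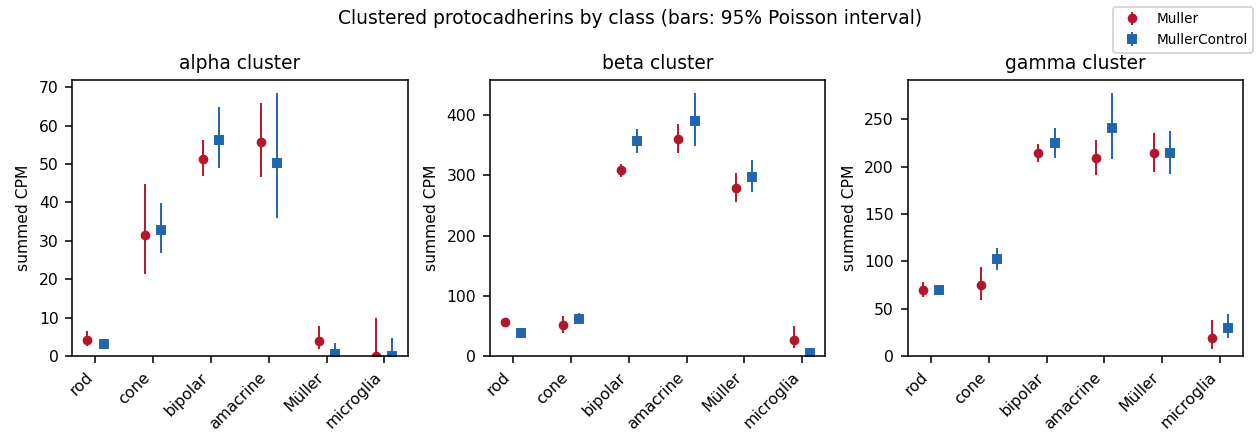
Summed CPM of the alpha, beta and gamma protocadherin arrays (panels) in 5 gated classes and in microglia (x axis) of the Muller (circles) and MullerControl (squares) libraries, with 95% Poisson intervals. Müller cells lie at 4.01 and 0.590 CPM in the alpha panel beside rods at 4.24 and 3.19 CPM, and lie at 279 and 298 CPM in the beta and 214 CPM in the gamma panel.

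Single clustered genes differed in their highest class, but for most the intervals of the leading class and the next overlapped in at least 1 library. The folds over the next class, with 10 CPM added, were 1.28 and 1.32 for Pcdhb14 and 1.21 and 1.18 for Pcdhb16. Pcdhb14 led in Müller cells (51.1 and 56.1 CPM) and was at 37.8 and 35.2 CPM in bipolar cells. Pcdhb16 was highest in bipolar cells, at 36.4 and 47.9 CPM, while Pcdhb17 was at 40.7 and 36.4 CPM in amacrine and 30.4 and 38.9 CPM in bipolar cells. Pcdhb20 was the most abundant clustered gene of rods, at 11.0 and 9.68 CPM. The other beta genes with at least 200 UMIs were Pcdhb4, Pcdhb7, Pcdhb9, Pcdhb11, Pcdhb15, Pcdhb18, Pcdhb19, Pcdhb21 and Pcdhb22, of which Pcdhb7 was highest in Müller cells in both libraries, at 34.1 and 23.6 CPM. In the gamma array the C-type genes, which neurons express without random choice, differed. Pcdhgc3 was highest in Müller cells, at 21.5 and 28.9 CPM against 7.50 and 10.7 CPM in bipolar cells. Pcdhgc4, needed for the survival of some interneurons, was at 22.5 and 21.3 CPM in amacrine cells and at 9.52 and 7.08 CPM in Müller cells. Of the C-type alpha genes, Pcdhac2 led in cones at 16.3 and 19.0 CPM and had 1 and 0 UMIs in rods. The remaining gamma genes above 200 UMIs were Pcdhga3, Pcdhga5, Pcdhga7, Pcdhga8, Pcdhga9, Pcdhga10, Pcdhga12, Pcdhgb4 and Pcdhgb5, at 0.985 to 35.4 CPM over the 5 classes. In the alpha array, 1 of the pair of Pcdha11 features (ENSMUSG00000102206) passed 200 UMIs, at 14.2 and 16.4 CPM in bipolar cells.

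The libraries were then compared within each class, which describes only these 2 libraries. A member was called where the ratio of summed UMIs, with 1 count added, was at least 1.5-fold and its 95% interval excluded equality. Over the 5 classes 34 of 238 pairs of member and class were called, 20 higher and 14 lower in the Muller library, or 14.3% beside 8.99% of all features. In rods 10 of 39 members were higher and 1 lower, beside 11.2% and 1.5% of all features. In cones 1 of 24 was higher and 1 lower, beside 3.71% and 2.42%. In bipolar cells 1 of 73 was higher and 9 lower, beside 2.12% and 4.55%. In amacrine cells 7 of 59 were higher and 2 lower, beside 3.78% and 8.16%. In Müller cells 1 of 43 was higher and 1 lower, beside 4.01% and 3.38%. Müller cells, the class the labels name, thus had a share near the background in both directions, with a median log2 ratio of -0.08 over members and -0.03 over all features.

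In cones Pcdh15 was lower in the Muller library, 386 against 706 CPM, a log2 ratio of -0.87 (-1.02 to -0.71). Within cluster 5 it was 471 against 823 CPM (-0.80), and in cluster 18 it was 71.9 against 87.5 CPM with an interval that includes equality. Of the rods, clusters 0 and 3 showed the same direction, at 121 against 207 CPM and 102 against 193 CPM. Clusters 1 and 2 differed by less, at 22.9 against 26.3 CPM in cluster 1 and, in cluster 2, by a log2 ratio of 0.12. Bipolar cells had 141 and 139 CPM. The other call in cones was Pcdh9, at 18.3 against 7.88 CPM, beside summed bipolar markers of 695 and 281 CPM in the same cones.

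Pcdh7 moved in different directions in different classes. Among bipolar cells the level was 57.4 CPM in the Muller and 149 CPM in the MullerControl library. That is -1.38 as a log2 ratio (-1.55 to -1.21). In the Kcng4 cells it was 81.5 against 248 CPM (-1.60), and in the Neto1 OFF cells 115 against 313 CPM (-1.35). In the Slitrk6 OFF cells it was 179 against 154 CPM, a ratio of 0.20 (-0.21 to 0.61). In amacrine cells the order was the opposite, 206 against 43.9 CPM, a ratio of 2.19 (1.70 to 2.68). There 1 cell held 45.7% of the 35 MullerControl UMIs, and without it the ratio was 3.02. The GABA-side cells gave 398 against 233 CPM (0.72) and the glycine-side cells 38.0 against 12.4 CPM (1.48). That cell was on the GABA side, and without it the GABA-side values were 398 against 97.9 CPM (1.89). Without the cell with the most Pcdh7 on the glycine side, that ratio was 2.05. In Müller cells it was 22.5 against 11.8 CPM (0.89), with 19.5 and 19.2 CPM in cluster 8 and 24.3 and 12.7 CPM in cluster 15.

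**Figure D4:**
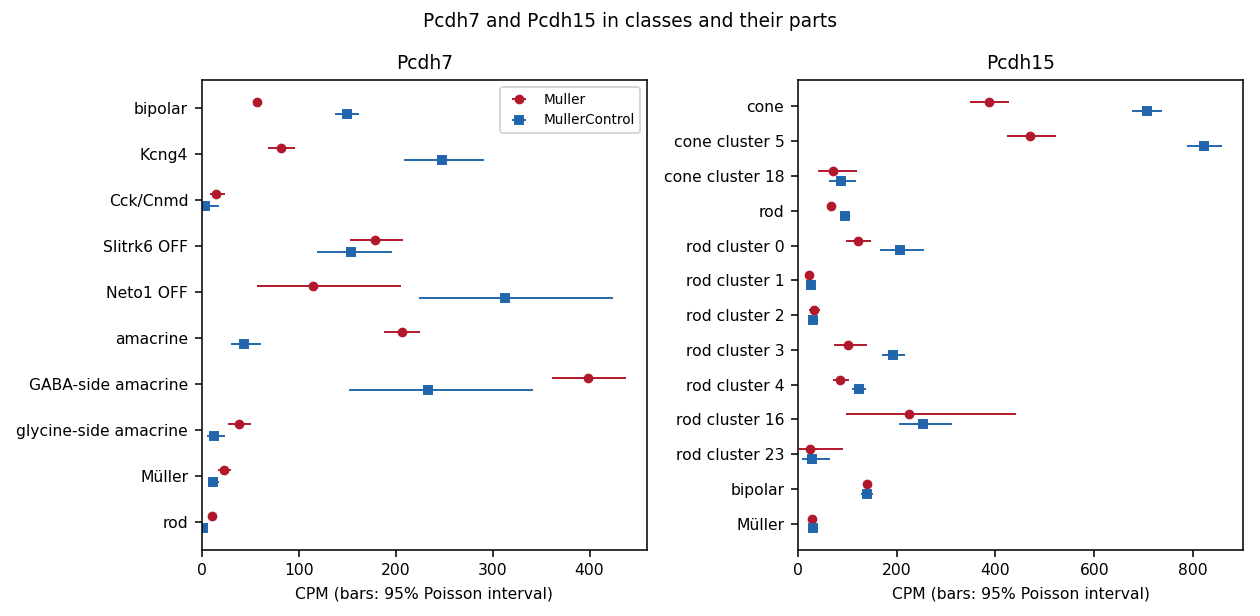
CPM (x axis) of Pcdh7 and Pcdh15 in classes, bipolar subtypes, amacrine sides and cell clusters (y axis) of the Muller (circles) and MullerControl (squares) libraries, with 95% Poisson intervals. Pcdh7 is lower in Muller bipolar cells and higher in Muller amacrine cells, and the Pcdh15 difference in cones is carried by cluster 5.

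Other amacrine calls varied between the sides of the class. Pcdh10 was at 71.9 against 20.1 CPM in all amacrine cells (1.76) but at 144 against 108 CPM within the GABA side (0.31, interval -0.50 to 1.13). Pcdh9 was at 139 against 65.3 CPM in all, at 218 against 332 CPM within the GABA side, a change of sign, and at 67.2 against 21.7 CPM within the glycine side. Pcdh11x, Pcdh20 and Cdh10 were called higher in the pooled class, with ratios of 1.58, 1.31 and 1.11, and had ratios of -0.24, -0.58 and -0.79 within the GABA side, on 3 to 5 MullerControl UMIs and with intervals that include equality. For Pcdh11x the sign came from the added count, as the levels were 29.5 against 26.9 CPM. On the glycine side Cdh10 was at 17.7 against 4.65 CPM (1.58), in the pooled direction, and Pcdh11x had no UMI. Cdh24 kept its sign within the GABA side, at 74.8 against 26.9 CPM, on 3 UMIs in the MullerControl library. Pcdh8, called lower at 45.7 against 96.7 CPM, was also lower within the glycine side, at 69.8 against 113 CPM (-0.70). Pcdhgb4 was the other amacrine call downward, at 9.56 against 18.8 CPM. In the bipolar class, Pcdh11x was at 5.39 against 24.2 CPM (-2.16), while the Cpne9/Tshz2 cells, which carried it, made up 1.11% and 4.86% of bipolar cells and held 408 and 561 CPM. Cdh22, the only bipolar member called higher, had 23 and 1 UMIs. The remaining bipolar calls were lower: Pcdh20 at 3.06 against 8.18 CPM, Cdh4 at 12.3 against 18.3 CPM, and the 5 clustered genes Pcdha9, Pcdhb12, Pcdhga4, Pcdhga9 and Pcdhga11 with ratios of -0.98 to -0.79.

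The members called higher in Muller rods were Pcdh7, Pcdh10, Pcdh9, Pcdh1, Cdh8, Cdh9, Pcdhb21, Pcdh17, Cdh11 and Pcdhb16. Most were genes of bipolar or amacrine cells at low levels in rods: Pcdh7 was at 10.4 and 0.851 CPM, Pcdh10 at 4.45 and 0.426 CPM, and Pcdh9 at 11.9 and 2.34 CPM. Summed bipolar markers in the same rods were 796 and 159 CPM, amacrine markers 118 and 18.6 CPM and Müller markers 762 and 278 CPM. The part of free RNA in these ratios was not tested. In Müller cells the same lists read 567 and 80.2 CPM for bipolar and 104 and 9.44 CPM for amacrine markers. The single call downward in rods was Cdh16, at 3.81 against 6.81 CPM, and in Müller cells Pcdhb11, at 14.0 against 23.0 CPM.

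Genes that work with cadherins were read in the same way, from 6 lists. Of 278 pairs of gene and class, 13 were higher and 14 lower in the Muller library, or 9.71%. Of 18 catenins and junction adaptors 17 passed the count limit, and Arvcf, a catenin of the p120 type, was Müller-enriched at 93.7 and 114 CPM. The most abundant were the nectin-bound adaptor Afdn (454 and 437 CPM in amacrine cells), Magi2, Ctnnb1 (beta-catenin, 72.2 to 118 CPM over the 5 classes) and Tjp1. In Müller cells 0 of 16 tested were called between the libraries. Of 20 other members of the cadherin superfamily 12 passed, with Fat1 enriched in Müller cells (29.0 and 41.3 CPM), Fat3 in amacrine cells (192 and 188 CPM) and Clstn3 in bipolar cells (159 and 162 CPM). Clstn1 and Cdhr1 were the most abundant, and Cdhr1, photoreceptor cadherin, was at 355 and 451 CPM in rods and 322 and 362 CPM in cones against 12.6 to 52.2 CPM elsewhere. This list had 0 higher and 3 lower of 9 in bipolar cells, Fat4, Fat3 and Clstn2.

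Of the 9 WAVE complex genes, Cyfip1 was Müller-enriched at 157 and 176 CPM, while its paralog Cyfip2 was highest in amacrine cells, at 299 and 278 CPM. Wasf3, Abi2 and Nckap1 were the other abundant ones. Of 11 Usher partners 7 passed, and Clrn1 was Müller-enriched at 59.6 and 57.2 CPM. Adgrv1 and Whrn, which act at the photoreceptor cilium, were at 141 and 126 and at 44.5 and 58.2 CPM in rods, and Cib2 was at 67.5 and 55.0 CPM in bipolar cells. The 8 shedding proteases, led by the gamma-secretase subunit Psenen, and the 11 regulators of the protocadherin arrays held no class-enriched gene. Among these regulators the cohesin genes Smc3, Smc1a, Nipbl and Wapl led, at 145 to 350 CPM in every class, and Ctcf was at 200 and 187 CPM in rods and 122 and 120 CPM in Müller cells. None of the 11 was called between the libraries in any class. All tallies of these lists stand beside the same background as the members.

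Across the 5 classes of both libraries, 10 points that share library and depth, the profiles nearest to the 3 most abundant class-enriched members were found among 11035 features by Pearson correlation of log2 CPM with 10 added, as a description. They were Tmed7, Cnn3 and Prpsap1 for Cdh2 (0.989, 0.987 and 0.986). For Cdh8 they were Frmd3, Cntn5 and Ampd3 (0.996, 0.992 and 0.991). For Cdh9 they were Gm534, Endou and Gm30893 (0.998, 0.997 and 0.996). The horizontal-like gate held 12 and 3 cells, too few for a count, and their leading members in the Muller library were Pcdh9 (30 UMIs), beta-array genes together (28 UMIs) and Cdh4 (18 UMIs, 165 CPM).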

How the data were processed

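Single-cell UMI counts were used as deposited by the authors, 1 filtered matrix of whole-number counts per library. The submitters' processing notes name Cell Ranger 4.0.0, Seurat 4.0.5, mm10 and GRCh38, with no role or order. Barcodes were dropped under 300 detected genes or over 20% mitochondrial UMIs. Scrublet called 2 and 0 doublets at its automatic threshold, which is taken as a failure, so the top-scoring 0.8% per 1000 barcodes were removed instead (1130 and 866). Classes and bipolar subtypes were gated on summed marker UMIs per 10000, at levels set after the marker UMIs were seen. Leiden clusters used 2000 variable genes without the members, 30 components, 15 neighbours and resolution 1.5. UMIs were summed per class and library and scaled to CPM, with exact 95% Poisson intervals, and classes needed 50 cells and subtypes 30 in each library to enter the counts of enriched members. The scripts were checked on simulated data. Named members have at least 200 UMIs, lead a class, are enriched, or are among the 3 largest calls in each direction per class. The others were named to spell out a list or a role group, after their values were seen. Members and lists were chosen with earlier results of these data known. No vector or tdTomato feature was analysed here. Kept cells had median depths of 1502 and 1589 UMIs. Tools were scanpy 1.11.5 under Python 3.11.15, scipy 1.17.1, numpy 2.4.6, pandas 2.3.3, anndata 0.12.19, leidenalg 0.10.2, igraph 0.11.9, scikit-learn 1.9.0 and matplotlib 3.10.9. Promoter windows came from RefSeq (GRCm38.p6) and gene coordinates from GENCODE M21. The values of 1 gene of the related lists are not reported here.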

Additional observations from a re-analysis of the deposited data

Results flagged for a closer look

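For 3 members the log2 ratio of the Muller over the MullerControl library was called higher in at least 1 class and called lower in another. Opposite signs without such calls were not counted here. For Pcdh7 it was 3.47 in rods, 2.19 in amacrine cells and 0.89 in Müller cells, but -1.38 in bipolar cells. For Pcdh20 it was 1.31 in amacrine cells and -1.42 in bipolar cells. For Pcdh11x it was 1.58 in amacrine cells and -2.16 in bipolar cells. With 1 library per group, the difference between classes was not tested.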

How the results depend on the processing

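No paired analysis was possible because each group holds 1 library, and no library could be left out. Of 48 counts and ratios recomputed under the alternatives, 38 stayed within their limit and 10 moved. Cdh2, Cdh7, Cdh8 and Cdh9 were class-enriched under the 8 alternatives of gating, filters and scaling, and Pcdh19 joined them with a mitochondrial limit of 10% and with CPM without Malat1 and mitochondrial genes. A 2-fold class threshold gave 9 members, adding Cdh6, Cdh20, Cdh22, Pcdh15 and Pcdh19. Subtype-enriched members became 2 with a stricter gate margin (Cdh8 and Cdh9, with Cpne9/Tshz2 cells no longer tested) and 2 with a mitochondrial limit of 10% (Cdh8 and Pcdh11x). These settings tested 4 and 5 subtypes against 6 in the main setting, so the calls were not made against the same set. Cdh8 was called for the Cck/Cnmd cells in both. The Neto1 OFF cells, highest for Cdh8 in the main setting, numbered 32 and 31 there, near the limit of 30. The 34 calls between libraries became 52 from the mean of per-cell CPM and 21 with a filter of 50 UMIs. The bipolar-over-rod ratio of clustered UMIs in the Muller library, 4.39, was 4.00 from Leiden clusters, 5.01 with the stricter margin, 4.02 without doublet removal and 5.68 in cells of at least 1000 UMIs, which gave 6.44 in the MullerControl library. Within subgroups, alternatives chosen after seeing the data, 6 of 34 ratios changed sign: Pcdh7 to 0.20 in Slitrk6 OFF cells and -0.15 in Müller cluster 8 (there and for Pcdh11x only through the added count), and, on the GABA side of amacrine cells, Pcdh20 to -0.58, Pcdh9 to -0.64, Cdh10 to -0.79 and Pcdh11x to -0.24. The cause was not tested. Of 272 single library ratios under the alternatives other than subgroups, 267 stayed and none changed sign. Depth limits members under 20 UMIs and the smallest subtypes.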
